A study of Mus musculus with 2 samples.

Results

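Genes for translation initiation factors were examined in a map of GABPα binding in CD4+ T cells, made by chromatin immunoprecipitation and sequencing (ChIP-seq). Members were the protein-coding genes of GENCODE M21 whose symbol starts with Eif, together with Mtif2 and Mtif3 of the mitochondrion. This gave 57 genes among 21938 protein-coding genes, 55 named Eif and 2 named Mtif, and 33 of the 6782 peaks lay near one of them. The cells came from wild-type mice of the C57BL/6 strain and were purified on MACS beads. One library (the ChIP library) was made with an antibody against GABPα, and the other, of input DNA without antibody, was the control for calling peaks. The age of these mice and the number pooled are not given in the sources used here. The list of peaks holds positions only, so the label of the cells could not be checked against markers, and the depth of both libraries is unknown. With 1 ChIP library there are no replicates, and no p-value is given. Where a share is printed with an interval, it is a Wilson 95% interval, which covers counting error only.

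Initiation factors bring the small ribosomal subunit and the initiator tRNA to the start codon of an mRNA. eIF2 delivers the tRNA in a GTP-bound form, and eIF2B reloads eIF2 with GTP. When stress kinases phosphorylate the α subunit of eIF2, eIF2B is blocked and general initiation falls. eIF3 is a large scaffold on the small subunit, and the eIF4 proteins recognise the cap of the mRNA, unwind its leader and link it to the ribosome. GABPα is the DNA-binding subunit of GABP and binds GGAA cores, best within a longer site such as CCGGAAG. Resting T cells keep protein synthesis low and raise it strongly on activation.

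The sequences under the peaks show how the members differ. The first 9 windows of 30 bases hold CCGGAAG, the next 4 hold only the shorter CGGAAG or GGAA, and the last 2 come from promoters of Eif5a2 and Eif1ax, which had no peak. Each is read 5′ to 3′ from GRCm38.p6 (mm10) on the strand that carries the motif, and capitals mark the motif, in genes with a peak the copy nearest its midpoint.
Eif2s1 (chr12:78861601-78861630, minus strand): cccaacaggaaCCGGAAGtgggaaccggtt
Eif2b2 (chr12:85219486-85219515, plus strand): cctctctcggcCCGGAAGtgaaacagtgct
Eif2b4 (chr5:31193120-31193149, minus strand): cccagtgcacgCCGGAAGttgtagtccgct
Eif3d (chr15:77970877-77970906, plus strand): gtgagacacaaCCGGAAGtgtgtcacagct
Eif3g (chr9:20898616-20898645, minus strand): cggccgcggcaCCGGAAGcctcttctactc
Eif3m (chr2:105017064-105017093, minus strand): ctgtggctgacCCGGAAGcggttgtgcgta
Eif4a1 (chr11:69671256-69671285, plus strand): caccaaggccaCCGGAAGtcccgccttcca
Eif4e2 (chr1:87213905-87213934, plus strand): tcgccagccaaCCGGAAGtagccgggccct
Mtif2 (chr11:29526374-29526403, minus strand): ttccggtaccgCCGGAAGcagcttccccat
Eif4a2 (chr16:23107396-23107425, minus strand): gggcgcttagggCGGAAGccggtggcgctg
Eif4a3 (chr11:119300087-119300116, plus strand): gccgcagcgccgCGGAAGagcgtcaagagg
Eif2s3x (chrX:94212962-94212991, minus strand): tccaaaaggaaacGGAAatgatttctccgt
Eif3a (chr19:60790723-60790752, minus strand): cgcggagaaaggcGGAAcatgcgcaaaggc
Eif5a2 (chr3:28781230-28781259, plus strand): cggggcctatcCCGGAAGtgtggtcgcggc
Eif1ax (chrX:159371954-159371983, minus strand): gcctccggcgtCCGGAAGggggcgggaggg
The windows of Eif2s1, Eif3d, Eif4a1 and Eif4e2 read ACCGGAAGT, the full site with an A before and a T after the motif. Among the first 9 windows, the motif is followed by C in Eif3g, Eif3m and Mtif2, and no A precedes it in Eif2b2, Eif2b4, Eif3m and Mtif2.

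Peaks no more than 1000 bp from an annotated transcript start were found in 31 of the 57 initiation factor genes (54.4%, 41.6 to 66.6). The same held for 17.7% of all protein-coding genes (3880 of 21938, 17.2 to 18.2), so the share of the factors was 3.08 times that of all genes. Expression was not measured in these files, so genes silent in T cells are part of the comparison. Promoter base composition also moved with it. Of all protein-coding genes with a promoter GC content of at least 50%, 22.6% had a peak, against 7.75% of those under 50%, and 50 of the 57 factors belong to the first class. Among these 50 factors 29 had a peak (58.0%, 44.2 to 70.6). The ratio of observed to expected CG pairs in the promoter had a median of 0.786 for the factors and 0.525 for all protein-coding genes. Among all protein-coding genes it was 0.805 for those with a peak and 0.419 for those without. The part of GC content or of CG pairs in the result was not tested. The factors also have more annotated starts than other genes, with a median of 5 against 3. When only the start of each gene was used, 30 factors had a peak and the share of all genes was 16.4%.

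By complex, a peak was found at 2 of 4 genes of eIF2, 3 of 5 of eIF2B, 9 of 14 of eIF3 and 6 of 16 of eIF4. Here eIF4 means all genes whose symbol starts with Eif4, including the binding proteins Eif4ebp1, Eif4ebp2, Eif4ebp3 and Eif4enif1. Without these binding proteins and the kinases of eIF2, 29 of 49 factors had a peak (interval 45.2 to 71.8%). The 4 kinases of eIF2 gave 1, the 12 remaining cytosolic factors 9, and the mitochondrial pair 1. eIF3 had the highest share of the 4 complexes (64.3%, 38.8 to 83.7) and eIF4 the lowest (37.5%, 18.5 to 61.4), but with so few genes the intervals overlap and the complexes are not shown to differ.

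**Figure D1:**
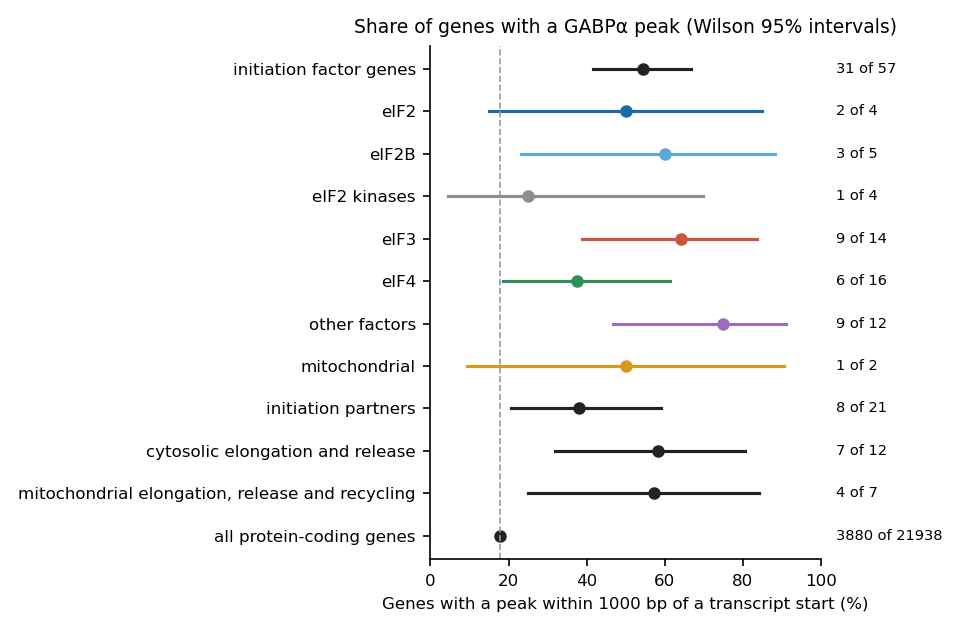
Percent of genes (x axis) with a GABPα peak no more than 1000 bp from a start for the initiation factor genes, their complexes, 3 lists of related translation genes and all protein-coding genes. Points are shares, bars Wilson 95% intervals, and the dashed line marks all protein-coding genes at 17.7%. All the points for factor groups lie to the right of the line, but the bars of eIF2, the kinases and the mitochondrial pair cross it.

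In eIF2, the peaks were at the genes of the α and γ subunits. Eif2s1 (ENSMUSG00000021116.10) encodes the α subunit, the target of the stress kinases. Its peak, from 78861512 to 78861808 on chromosome 12, was 297 bp wide and ended 11 bp before the start of the gene. It held 10 GGAA cores, the second highest number after Eif1ad (14) and equal to that of Eif1a. These numbers were not adjusted for the width of the peaks. Eif2s3x encodes the X-linked γ subunit, which binds GTP and the tRNA. Its peak of 203 bp (94212861 to 94213063 on chromosome X) just reached the start of the gene and held 4 GGAA cores but no CGGAAG. Eif2s2, for the β subunit, had no peak within 235783 bp of a start, and Eif2s3y, the copy of the γ gene on chromosome Y, none within 101752 bp.

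In eIF2B the peaks were at Eif2b1, Eif2b2 and Eif2b4, which encode the α, β and δ subunits of the regulatory subcomplex, the part that senses phosphorylated eIF2. Eif2b3 and Eif2b5, for the γ and ε subunits that catalyse the exchange of GDP for GTP, had none. The split of 3 against 2 is a description of 5 genes. The peak of Eif2b2 (85219265 to 85219607 on chromosome 12) was 343 bp wide, at the 95.2nd percentile of the list, and its motif starts 16 bp downstream of the gene start in the 5′ UTR. At Eif2b4 the peak of 204 bp (31193023 to 31193226 on chromosome 5) covered an internal annotated start, and the motif begins 1 bp past that start and 292 bp past the start of the gene. The peak of Eif2b1, 265 bp from 124578973 to 124579237 on chromosome 5, held 5 GGAA cores and no CGGAAG. The nearest peaks to Eif2b3 and Eif2b5 were 39193 and 10511 bp from a start and lay at the starts of Btbd19 and Dvl3.

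Of the kinases that phosphorylate eIF2, Eif2ak1, the heme-regulated kinase, had a peak. It was 270 bp wide (143817642 to 143817911 on chromosome 5) and held CCGGAAG with its first base 26 bp downstream of the start. Eif2ak2 (PKR, activated by double-stranded RNA), Eif2ak3 (PERK, of the endoplasmic reticulum) and Eif2ak4 (GCN2, which senses uncharged tRNA) had none within 22377 bp.

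eIF3 contributed the most peaks of any complex, at Eif3a, Eif3c, Eif3d, Eif3g, Eif3h, Eif3i, Eif3k, Eif3l and Eif3m. Their widths ran from 113 bp at Eif3a to 334 bp at Eif3m, with a median of 247 bp. In between were Eif3g (199 bp), Eif3k (207 bp), Eif3d (208 bp), Eif3c (247 bp), Eif3h (252 bp), Eif3l (280 bp) and Eif3i (287 bp). In 8 of the 9 genes the peak covered the start of the gene, and in all 9 its midpoint was within 100 bp of an annotated start. The same 8 peaks held CCGGAAG. Of the 3426 peaks near other protein-coding genes, 80.1% covered a start of a protein-coding gene and 57.1% held CCGGAAG. In 80.4% of them the midpoint was within 100 bp of such a start. Eif3a, for the largest subunit, was the exception in coverage and motif. Its peak of 113 bp (60790663 to 60790775 on chromosome 19) was at the 19.2nd percentile of width. It stopped 5 bp short of the start, which is annotated for a transcript with a retained intron, and held 2 GGAA cores without CGGAAG.

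The motif lay close to the start in these genes. Its first base was 2 bp upstream of the start at Eif3m, 11 bp upstream at Eif3g, which encodes an RNA-binding subunit, 15 bp upstream at Eif3i and 17 bp upstream at Eif3c. At Eif3l and Eif3h it was 15 and 27 bp downstream, in the 5′ UTR, and at Eif3d, a subunit that can bind the cap of some mRNAs, 75 bp upstream. At Eif3k it was 14 bp downstream of an alternative start and 64 bp from the start of the gene. Eif3d and Eif3l held the full site ACCGGAAGT. Eif3c and Eif3i each held 2 copies of CCGGAAG, whose first positions were 34 bp apart on the same strand and 32 bp apart on opposite strands. The eIF3 genes without a peak were Eif3b, Eif3e, Eif3f, Eif3j1 and Eif3j2. The nearest peaks to a start of Eif3b and Eif3f were 87317 and 578564 bp away. Eif3j1 and Eif3j2 encode near-identical copies of the loosely bound j subunit. Only 76.2% and 65.3% of the 36-base sequences in the 300 bp around their starts occur 1 time in the genome. Shares were lower still around the gene starts of Eif2s3x (64.5%) and Eif4g1 (55.5%), which had peaks. Within those peaks, however, the shares were 98.2% and 100%. The peak of Eif2s3x just reached the gene start, and that of Eif4g1 lay 4443 bp from it. Whether repeated sequence bears on the lack of peaks at Eif3j1 and Eif3j2 was not tested.

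Among the eIF4 genes all 3 helicases had peaks, and so did Eif4e2, Eif4g1 and Eif4ebp2. Eif4a1, the main RNA helicase of initiation in most cells, had 2 peaks. The peak of 167 bp (69672506 to 69672672 on chromosome 11) ended 83 bp before the gene start and held CGGAAG, and the peak of 264 bp (69671183 to 69671446) lay over the internal start of a transcript with a retained intron and held ACCGGAAGT. At Eif4a2, the other cytosolic helicase, the peak was 200 bp wide (23107301 to 23107500 on chromosome 16), and at Eif4a3, a helicase of the exon junction complex, 318 bp (119299914 to 119300231 on chromosome 11). Neither held CCGGAAG, but CGGAAG occurred 1 time in the former and 3 times in the latter.

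Eif4e2, a cap-binding protein that represses translation, also had 2 peaks. They were 309 bp (87213774 to 87214082 on chromosome 1) and 203 bp wide (87214168 to 87214370), and each covered an annotated start and held CCGGAAG. Eif4e itself had no peak within 83085 bp, and none was found at Eif4e1b or Eif4e3. Of the scaffold genes, Eif4g1 had a peak of 123 bp (20672756 to 20672878 on chromosome 16) over the start of an internal protein-coding transcript, 4443 bp downstream of the start of the gene, with a GGAA core and no CGGAAG. Eif4g2 and Eif4g3 had none. Of the proteins that hold back the cap-binding factor, Eif4ebp2 had a peak of 300 bp, from 61452694 to 61452993 on chromosome 10, that ended 33 bp before the start and held CCGGAAG. Eif4ebp1, Eif4ebp3 and Eif4enif1 had none, nor did Eif4b and Eif4h, the cofactors of the helicase.

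The remaining cytosolic factors included the widest peaks. Eif1ad, a gene with an eIF1A-like domain, had a peak of 533 bp (5366533 to 5367065 on chromosome 19), at the 99.3rd percentile of the list, with 2 copies of CCGGAAG and 14 GGAA cores. Peaks followed at Eif1b (392 bp), Eif1a (359 bp), Eif2a (356 bp), Eif2d (304 bp), Eif5 (253 bp), Eif6 (227 bp), Eif1 (217 bp) and Eif5b (148 bp). At Eif1ad, Eif1a, Eif2a and Eif5b the midpoint was nearer to a start of a neighbouring protein-coding gene. Eif1 and Eif1a act in the choice of the start codon, Eif5 triggers hydrolysis of GTP by eIF2, and Eif5b joins the ribosomal subunits. CCGGAAG was in the peaks of Eif1, Eif1a, Eif1ad, Eif1b and Eif6. At Eif2a, Eif2d and Eif5b CGGAAG was present without the preceding C, and at Eif5 only GGAA cores were found. Eif1ax, Eif5a and Eif5a2 had no peak. Eif5a and its paralog encode the factor that carries hypusine, and the peak nearest to Eif5a was 4062 bp from a start, at the start of Gps2.

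Mtif2 (ENSMUSG00000020459.14) encodes the mitochondrial factor that brings the initiator tRNA to the mitochondrial ribosome. Its peak, from 29526267 to 29526498 on chromosome 11, was 232 bp wide and reached from -141 to 90 bp relative to the gene start. It held 2 copies of CCGGAAG on opposite strands with first positions 12 bp apart, the closest pair among the factors, and 3 copies of CGGAAG in all. Mtif3, which helps to dissociate the mitochondrial ribosome and position the start codon, had no peak within 113605 bp of a start.

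**Figure D2:**
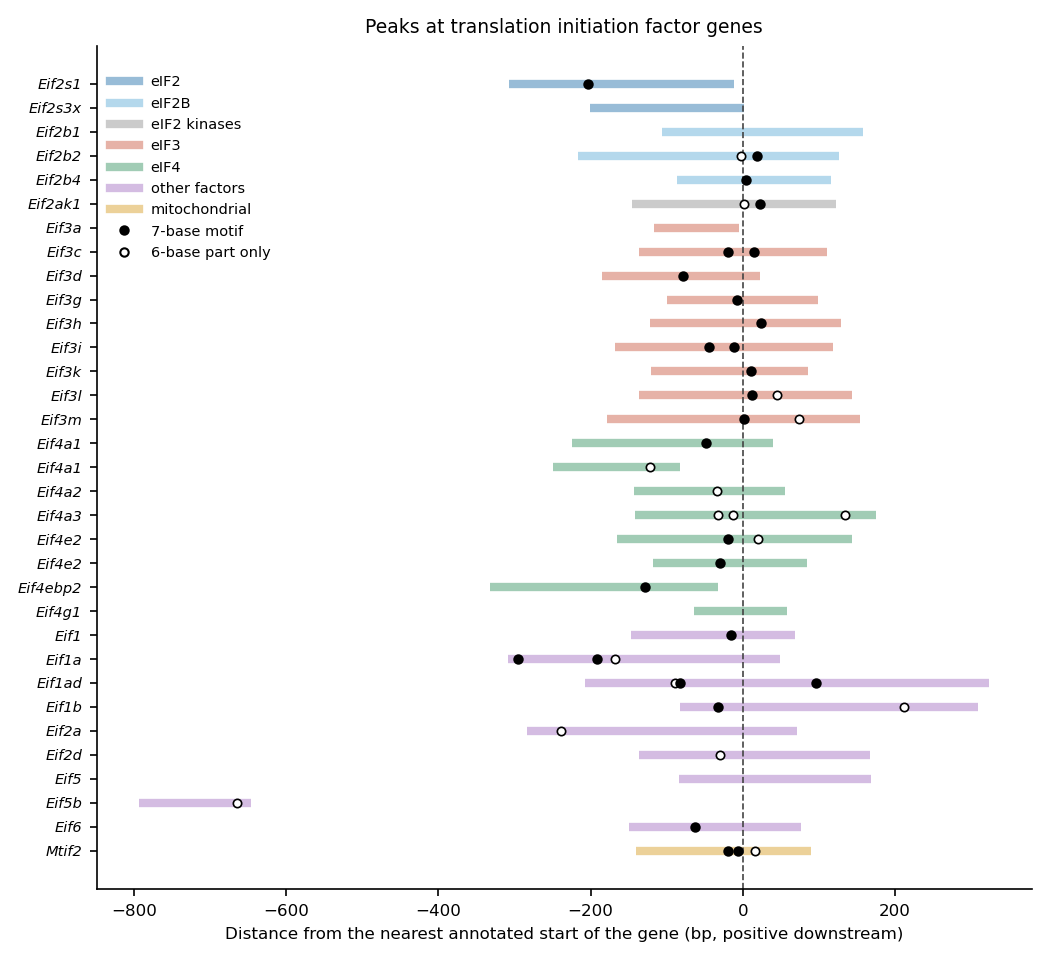
Extent of the 33 peaks at initiation factor genes (bars, coloured by complex) along the distance in bp from the nearest annotated start of each gene (dashed line, positive values downstream). Filled circles are copies of CCGGAAG and open circles copies of CGGAAG outside it. Of the 33 bars, 28 cross the dashed line, and the bar of Eif5b lies apart, 646 bp upstream.

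Most peaks sat over the start. A start of the factor gene itself lay inside 28 of the 33 peaks, and the midpoint was within 100 bp of such a start in 26. The median distance from midpoint to start was 37 bp, and 23 midpoints were upstream, 9 downstream and 1, at Eif3g, exactly at the start. By complex the median distance was 129.5 bp for eIF2 (2 peaks), 26 bp for eIF2B, 13 bp for eIF3 and 30.25 bp for eIF4. For starts of any protein-coding gene, 30 of the 33 peaks (90.9%) covered one, against 80.1% of the 3426 peaks that lie as near to other protein-coding genes. By the same measure, midpoints were within 100 bp of a start in 30 of the 33, against 80.4% of those other peaks. The median distances were 24.5 and 29.5 bp. No interval was computed for these shares, and a difference in position is not shown. Just inside the limit of 1000 bp was the peak of Eif5b, 646 bp from its start, followed by Eif4a1 at 83 bp. Just outside was that of Eif5a at 4062 bp. By the annotation of the factor gene, 1 motif copy was placed per peak. It was the CCGGAAG nearest the midpoint or, in the 11 peaks without CCGGAAG, the nearest CGGAAG or else GGAA. This copy lay upstream of all transcripts in 16 peaks, in a 5′ UTR in 14, and in a coding exon, another exon and an intron in 1 each. The counts are therefore not those of CCGGAAG alone.

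Some of the peaks are shared with a neighbouring gene. In 10 of the 33 peaks (30.3%, 17.4 to 47.3) a start of another protein-coding gene also lay within 1000 bp, and in each case that gene was on the opposite strand. Of the other promoter peaks, 20.6% (19.3 to 22.0) had a further protein-coding gene, and the intervals overlap. The pairs were Eif2s1 with Atp6v1d, Eif2b1 with Gtf2h3, Eif2b4 with Snx17, Eif3i with Tmem234, Eif3k with Map4k1, Eif3m with Ccdc73, Eif1a with Tmed7, Eif1ad with Banf1, Eif2a with Serp1 and Eif5b with Txndc9. In 6 of the 10 the midpoint was nearer to the start of the neighbour. At Eif5b it was 24.5 bp from a start of Txndc9 and 719.5 bp from that of Eif5b, and at Eif2s1 it was 22 bp from a start of Atp6v1d and 159 bp from that of Eif2s1. Eif1a, Eif1ad, Eif2a and Eif3i were the others. Without these 6 peaks, 25 of the 57 factors had a peak (43.9%, 31.8 to 56.7), and under the same rule 15% of all protein-coding genes did. The list does not tell which gene of such a pair is acted on.

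**Figure D3:**
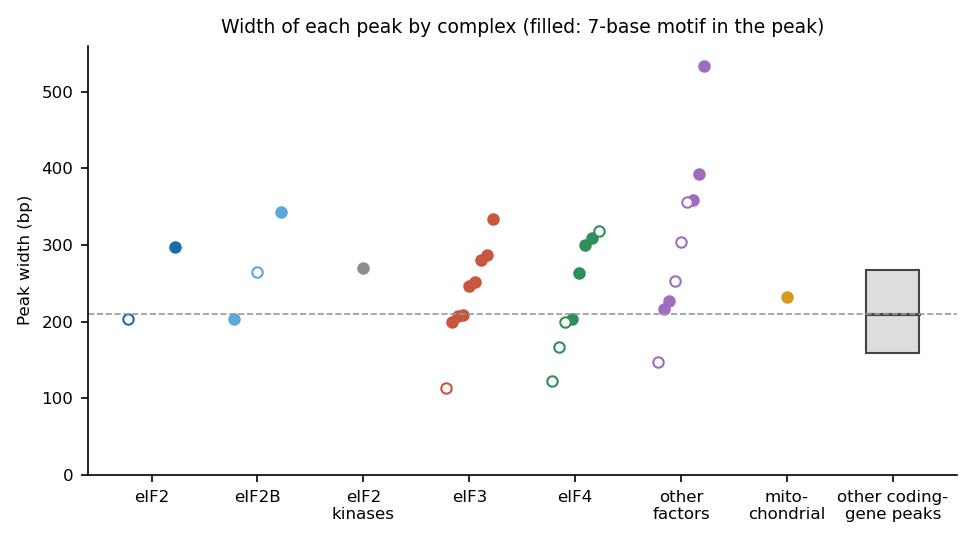
Width of each of the 33 peaks (bp, y axis) by complex, with filled points for peaks that hold CCGGAAG and open points for those that do not. The grey box gives the median (210 bp) and the quartiles (159 and 267 bp) of the 3426 other promoter peaks, and the dashed line its median. The open points include the narrowest peaks, at Eif3a (113 bp) and Eif4g1 (123 bp).

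Width at the factors ran from 113 to 533 bp. The median was 253 bp (quartiles 204 and 304 bp), and that of the other promoter peaks 210 bp (159 and 267 bp). The interval of the factor median, 208 to 297 bp, includes 210 bp, so a difference in median width is not shown. Of the factor peaks 30 of 33 (90.9%) were at or above the median of the whole list, 157 bp, against 76.0% of the other promoter peaks. The exceptions were at Eif3a, Eif4g1 and Eif5b. No interval was computed for the shares of 90.9% and 76.0%, and a difference between them is not shown. Medians by complex were 265 bp for eIF2B, 250 bp for eIF2, 247 bp for eIF3 and 233.5 bp for eIF4, while the ranges of the 4 complexes overlapped. Factor peaks with CCGGAAG had a median of 267 bp (199 to 533 bp, n = 22) and those without it 203 bp (113 to 356 bp, n = 11). Among the other promoter peaks the medians were 230 and 184 bp. A wider peak holds more sequence in which the motif can occur, and the part of this was not tested. None of the factor peaks was mostly repeat by soft-masking, and the highest masked share was 30.95%, at Eif3h. In 29 of the 33, all 36-base sequences, the length of the reads, occur 1 time in the genome, and the lowest share was 84.3%, also at Eif3h.

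CCGGAAG was in 22 of the 33 factor peaks (66.7%, 49.6 to 80.2) and in 57.1% of the other promoter peaks (1957 of 3426, 55.5 to 58.8). The shorter CGGAAG, which is part of it, was in 28 (84.8%, 69.1 to 93.3) against 76.6% (75.1 to 77.9). All 33 held the GGAA core that is part of both, against 98.7%. The longer ACCGGAAGT was in 6 (18.2%, 8.61 to 34.4), at Eif2s1, Eif3d, Eif3l, Eif4a1, Eif4e2 and Eif1a, against 9.02% (8.11 to 10.02). In each of these comparisons the intervals overlap, and the shares were not adjusted for the width of the peaks. All were searched on both strands.

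**Figure D4:**
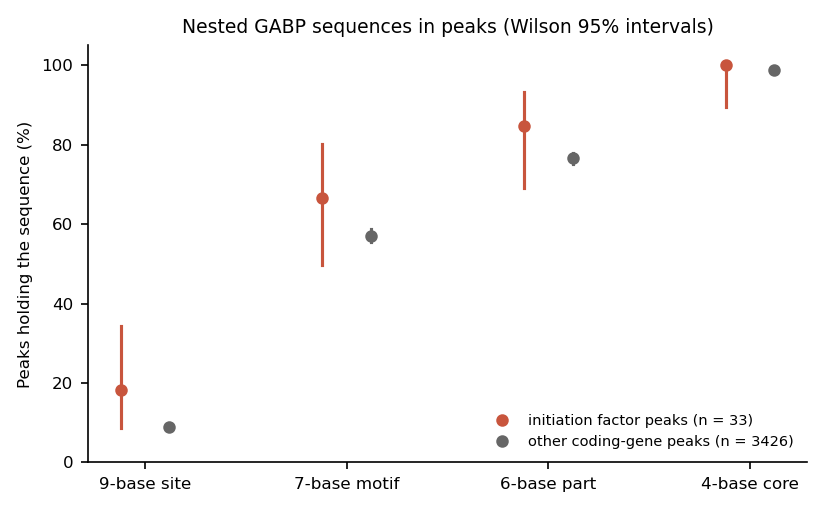
Percent of peaks (y axis) that hold ACCGGAAGT (9-base site), CCGGAAG (7-base motif), CGGAAG (6-base part) or GGAA (4-base core), for the 33 peaks at initiation factor genes and the 3426 other peaks at protein-coding genes. Bars are Wilson 95% intervals, and for each sequence the intervals of both sets overlap.

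By complex, CCGGAAG was in 1 of 2 peaks of eIF2, 2 of 3 of eIF2B, 8 of 9 of eIF3 and 4 of 8 of eIF4, and in the peaks of Eif2ak1 and Mtif2. The 22 peaks held 27 copies, of which 18 were upstream and 9 downstream of the nearest start. Their distance to the midpoint of the peak had a median of 24 bp, and 21 were within 50 bp. The motif read on the strand of the gene in 11 copies and on the opposite strand in 16. Positions and strands of copies are not given for the other promoter peaks, so no difference from them is shown. Peaks with 2 copies were those of Eif3c, Eif3i, Eif1a, Eif1ad and Mtif2 (15.2% of the peaks, against 13.9% of the other promoter peaks with at least 2). Read on its own strand, the motif was preceded by A in 12 of the 27 copies (44.4%, 27.6 to 62.7), against 26.0% (24.3 to 27.8) of 2545 copies in the other peaks. It was followed by C in 12 (44.4%, 27.6 to 62.7) and by T in 11 (40.7%, 24.5 to 59.3), against 30.1% and 46.6%.

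The promoters themselves were then compared, in a window from 250 bp before to 50 bp after the start of each gene, independent of the peaks. CCGGAAG was in the window of 15 of the 31 factors with a peak (48.4%, 32.0 to 65.2) and of 2 of the 26 without (7.69%, 2.14 to 24.1), and these intervals do not overlap. In all, the window of 17 factors held it (29.8%, 19.5 to 42.7), against 10.8% of all protein-coding genes. The 2 factors with the motif and no peak were Eif5a2, with 2 copies at 163 and 35 bp before the start, and Eif1ax, with its copy 206 bp before it. For all protein-coding genes the shares were 41.7% with a peak and 4.13% without. Median GC content of the window was 60.3% for the factors with a peak and 56.0% for those without.

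Turned around, 15 of the 17 factors with CCGGAAG in the window had a peak (88.2%, 65.7 to 96.7), against 68.5% (66.6 to 70.3) of all protein-coding genes with the motif. Without the motif in the window, 16 of 40 factors had a peak (40.0%, 26.3 to 55.4), against 11.6% (11.1 to 12.01) of all protein-coding genes. In 6 further factors the motif was in the peak but outside the window. Its first base was 64 bp downstream of the gene start at Eif3k, 196 bp at Eif6, 224 bp at Eif1b, 292 bp at Eif2b4, 621 bp at Eif1 and 1156 bp at Eif4a1.

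**Figure D5:**
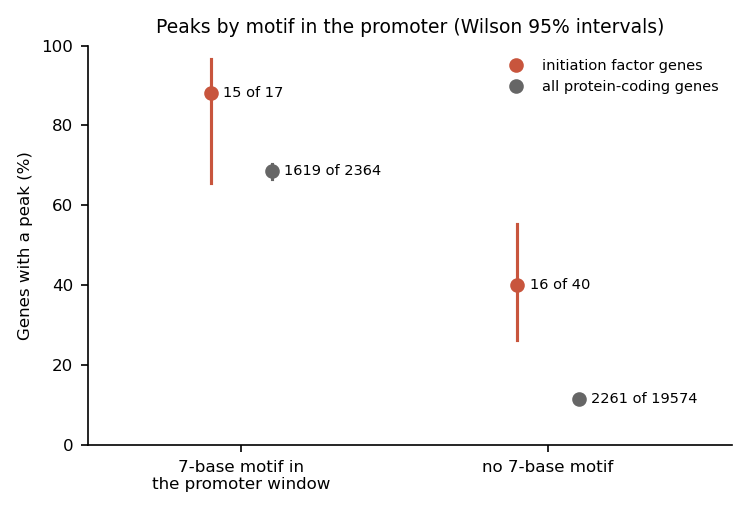
Percent of genes with a peak (y axis), split by CCGGAAG (7-base motif) in the window from 250 bp before to 50 bp after the gene start, for the 57 initiation factor genes and all protein-coding genes. Bars are Wilson 95% intervals, and counts stand beside the points: 15 of 17 factors with the motif and 16 of 40 without it had a peak.

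For the 26 factors without a peak, the nearest peak was 4062 to 784224 bp from a start, with a median of 67657.5 bp. In 6 of them (Eif5a, Eif4ebp3, Eif4enif1, Eif2b5, Eif4e1b and Eif4g3) it was within 20 kb, and 5 of these 6 peaks lay at the start of another protein-coding gene. In 19 of the 26, all 36-base sequences in the 300 bp around the gene start occur 1 time in the genome, as they do in 23 of the 31 with a peak. The list holds only intervals past the cutoff of the authors, so weaker enrichment at these genes would not appear.

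Other genes of translation were set beside the factors. Of 21 partners of initiation, 8 had a peak (38.1%, 20.8 to 59.1): Pabpc1, the poly(A)-binding protein, Paip2, its inhibitor, Ppp1r15b, which directs dephosphorylation of eIF2α, Gcn1l1 and Impact, which act on GCN2 in opposite ways, Bzw1, and Dhps and Dohh. The last pair are the enzymes that make hypusine on eIF5A, whose own genes Eif5a and Eif5a2 had no peak. Ppp1r15a, the stress-induced relative of Ppp1r15b, and the initiation helicases Dhx29 and Ddx3x had none. Of 12 genes for cytosolic elongation and release, 7 had a peak (58.3%, 32.0 to 80.7), including the elongation factor genes Eef1a1 (107 bp) and Eef1b2 (455 bp) and the release factor genes Etf1 (457 bp) and Gspt1 (317 bp), while Eef2 had none. Of 7 genes for mitochondrial elongation, release and recycling, 4 had a peak (57.1%, 25.05 to 84.2): Tufm, Gfm1, Gfm2 and Mtrf1. The intervals of the 3 lists overlap that of the initiation factors.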

How the data were processed

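CD4+ T cells of wild-type C57BL/6 mice gave 1 ChIP library with an antibody against GABPα and 1 input library. Single-end reads of 36 bp were trimmed by the authors (Trimmomatic, bases under quality 20 removed and reads under 30 bases dropped) and placed on mm10 by Bowtie. Peaks were those of MACS2 over the input with q below 0.01. Versions are not given in the sources used here. The deposited list gives start and end positions (in bp), with an empty score column, so width is the only size of a peak. Starts were taken as 0-based and are printed 1-based.

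Peaks were set on GRCm38.p6 (mm10) and GENCODE M21. Motifs were exact matches on both strands. The share of 36-base sequences that occur 1 time in the genome sequence was counted over both strands. A peak was called mostly repeat with at least 50% soft-masked bases. Other promoter peaks are those within 1000 bp of a transcript start of a protein-coding gene that is no factor. Steps were tested on simulated data. Alternatives covered the distance to a start, the starts used, width, masking, shared promoters, the motif and the promoter window. The members and gene lists were chosen with earlier results of these data known, and all members are named, with width, position and motif for the peaks of eIF2, eIF2B, eIF3, eIF4 and the mitochondrial factors. Printed windows were picked, with their values known, from those around the motif nearest each midpoint. Intervals were computed with scipy 1.17.1, the sequence steps with pysam 0.24.0 and numba 0.67.0, and tables and plots with Python 3.11.15, pandas 2.3.3, numpy 2.4.6 and matplotlib 3.10.9.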

Additional observations from a re-analysis of the deposited data

How the results depend on the processing

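Of 76 alternative values, 69 stayed within 1.5 times the count or within the 95% interval reported, and 7 moved outside. The number of factors with a peak ran from 25 (without peaks nearer to another protein-coding gene, an alternative chosen after seeing the data, against 15% of all protein-coding genes) to 31. With only peaks at or above the median width it was 28, against 14% of all protein-coding genes, and with peaks that cover a start it was 27, against 13.9%. Requiring a covered start left 1 gene of eIF2, and the median width left 4 genes for cytosolic elongation and release. In the factor peaks, CGGAAG in place of CCGGAAG gave 84.8%, ACCGGAAGT 18.2% and GGAA 100%, by construction of the nested sequences. In promoters of factors with a peak, CGGAAG gave 67.7%, against 23.1% of factors without one. CCGGAAG in a window of 500 bp to either side of the start gave 67.7% and 15.4%, and for all protein-coding genes 59.4% with a peak and 10.6% without. Without replicates no library could be left out. No paired analysis was possible because there is 1 ChIP library. Depth is unknown, so a gene without a peak cannot be told from one bound below the cutoff.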
